A study of Mus musculus with 52 samples.

Results

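Medium conditioned by neurons was given to cultured mouse astrocytes with and without Apoe, and the comparison described here is the difference between those responses: the change with neuronal medium in Apoe knockout astrocytes less the change in wild-type astrocytes. It uses 12 of the 52 libraries of the series, chosen by their labels as 4 groups of 3. The groups, all labelled C57BL/6, were untreated wild-type astrocytes, wild-type astrocytes given neuronal medium, untreated Apoe knockout astrocytes and Apoe knockout astrocytes given neuronal medium. Other libraries of the series cover wild-type astrocytes given medium of Apoe knockout neurons, fatty acid treatments of astrocytes of both genotypes, and brain tissue from epilepsy models. The labels give neither the Apoe allele, the age or sex of the animals, the number of cultures, nor the dose and duration of the medium. Nor do they say whether the 3 libraries of a group came from separate cultures, and the p-values therefore rest on a library-to-library spread that may be technical. The names of the medium-treated libraries contain KA, the treatment of the epileptic brains, while their treatment field names medium alone, so the state of the donor neurons cannot be read from them. The name of the third untreated knockout library begins with mix, with no explanation given.

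Apolipoprotein E is the main lipid carrier that astrocytes secrete. It is loaded with cholesterol and phospholipid by ATP-binding cassette transporters such as Abca1 and is taken up by neurons and glia through receptors of the LDL receptor family. Astrocytes also clear glutamate and potassium from around neurons, and signals released by neurons are known to shape the astrocyte's mature gene programme. Culture medium conditioned by neurons carries such signals, together with nutrients and lipids that the neurons left in it.

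Levels are in TPM, transcript abundance scaled to a fixed total per library, and every difference is on the log2(TPM + 1) scale, where 1 is about 2-fold for a well expressed gene and the change of a low gene is understated. A positive interaction value means that the change with medium was more upward in knockout than in wild-type astrocytes, and a negative value that it was more downward. Interaction values are given ± SE from limma, fitted over all 27 astrocyte libraries in 9 groups, and a gene passed at a Benjamini-Hochberg adjusted p under 0.05. The 12 libraries totalled 991735 to 995054 TPM, 14410 to 14652 genes reached 1 TPM in each, and mitochondrial genes made up 5.52% to 6.83% of the TPM. The sequencing depth behind these values is unknown. No 2 of the 12 libraries held identical values, and the median coefficient of variation of genes at 10 TPM or more was 4.5% to 5.75% within the groups. Over the genes of a library, which are no independent replicates, log2 levels correlated at 0.982 to 0.987 between libraries of a group, at 0.981 to 0.984 between untreated and medium-treated wild type, and at 0.963 to 0.966 between untreated and medium-treated knockout.

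Apoe itself (chromosome 7, 19696109 to 19699188, mm10) checks the genotype labels. It stood at 4234, 4787 and 5024 TPM in the untreated wild-type libraries and 4896, 4773 and 4096 TPM in the wild-type libraries with medium. In the knockout libraries it stood at 40.4, 47.1 and 43.5 TPM untreated and 113, 113 and 118 TPM with medium. All 6 knockout libraries lay far below all 6 wild-type libraries, and within the knockout the groups with and without medium did not overlap. The residual signal rose 2.62-fold with medium (interaction 1.40 ± 0.14, limma adjusted p = 1.32e-07), which closed 1.53% of the distance to untreated wild type. The values do not show which part of the gene the reads came from.

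Genes of the sex chromosomes differed between the genotypes as well. Xist, the RNA of the inactive X chromosome, stood at 36.8, 30.7 and 36.3 TPM in untreated wild type and 47.4, 35.3 and 40.3 TPM in wild type with medium. In the knockout it stood at 3.81, 2.79 and 2.93 TPM untreated and 7.12, 8.55 and 8.51 TPM with medium (interaction 0.89 ± 0.27, limma adjusted p = 0.023), and the interaction did not pass without any of 7 single libraries (limma adjusted p from 0.0501 to 0.0655). Mean Xist went from 34.59 to 41.01 TPM in wild type and from 3.18 to 8.06 TPM in knockout. On the linear TPM scale its interaction thus had the opposite sign (-1.54 TPM). The Y-linked helicase gene Ddx3y was at 33.5, 32 and 31.3 TPM in untreated knockout, 22.9, 24.3 and 31 TPM in knockout with medium and 14.9 to 19.1 TPM over the 6 wild-type libraries, with no interaction past the test (limma adjusted p = 0.745). The Xist level was thus low in the knockout cultures, and lowest in the untreated ones, which also had the highest Ddx3y. Differences in the make-up of the cultures, which these genes track, and effects of genotype or medium cannot be told apart. Among 552 genes of the X and Y chromosomes 16.3% passed the interaction test, among 421 genes within 20 Mb of Apoe 15.7%, and among all others 18.7%.

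Neuronal medium moved many genes in knockout astrocytes and few in wild-type astrocytes, and the test of that difference passed for 2995 of 16161 genes (18.5%). Of these, 1872 (11.6%) were positive and 1123 (6.95%) negative, and 768 also reached a 2-fold interaction. In knockout astrocytes 3019 genes (18.7%) rose and 2030 (12.6%) fell with medium, 31.2% of genes tested together, while in wild-type astrocytes 3 rose and 3 fell (0.0186% each and 0.0371% together, with 1031 genes at an unadjusted p under 0.05). The wild-type count moved with single libraries, to 0 without the second untreated, the first medium-treated or the third medium-treated wild-type library, to 1 without the first untreated, to 3 without the third untreated and to 11 without the second medium-treated one. The median interaction over all genes was -0.01. Both medium tests used a spread pooled over all groups. Without the untreated knockout library whose name begins with mix, 1684 genes were positive and 926 negative.

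The knockout stood closer to wild type with medium than without it. Untreated, 3855 genes (23.9%) were higher and 3403 (21.1%) lower in knockout than in wild type, 44.9% of genes tested together, and under medium 1964 (12.2%) were higher and 1487 (9.2%) lower, 21.4% together. The medium-treated libraries share no library with the untreated ones, so the untreated differences can be followed in them. Of the 3855 genes higher in untreated knockout, 1529 were higher under medium too, 2261 did not pass and 65 were lower, and their median difference was 0.53 untreated and 0.23 under medium. Of the 3403 genes lower in untreated knockout, 1202 were lower under medium too, 2151 did not pass and 50 were higher, with median differences of -0.72 and -0.23. Both sets were picked by a passing untreated difference, so the size of their untreated medians may be overstated. How much this adds to the smaller medians under medium was not tested. Across all 16161 genes the knockout difference under medium followed the untreated one with a Pearson correlation of 0.643, a Spearman correlation of 0.57 and a least-squares slope of 0.395, as a description over genes that share their libraries. The change with medium in knockout followed that in wild type with a correlation of 0.0527 and 0.0822 by the same measures.

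**Figure D1:**
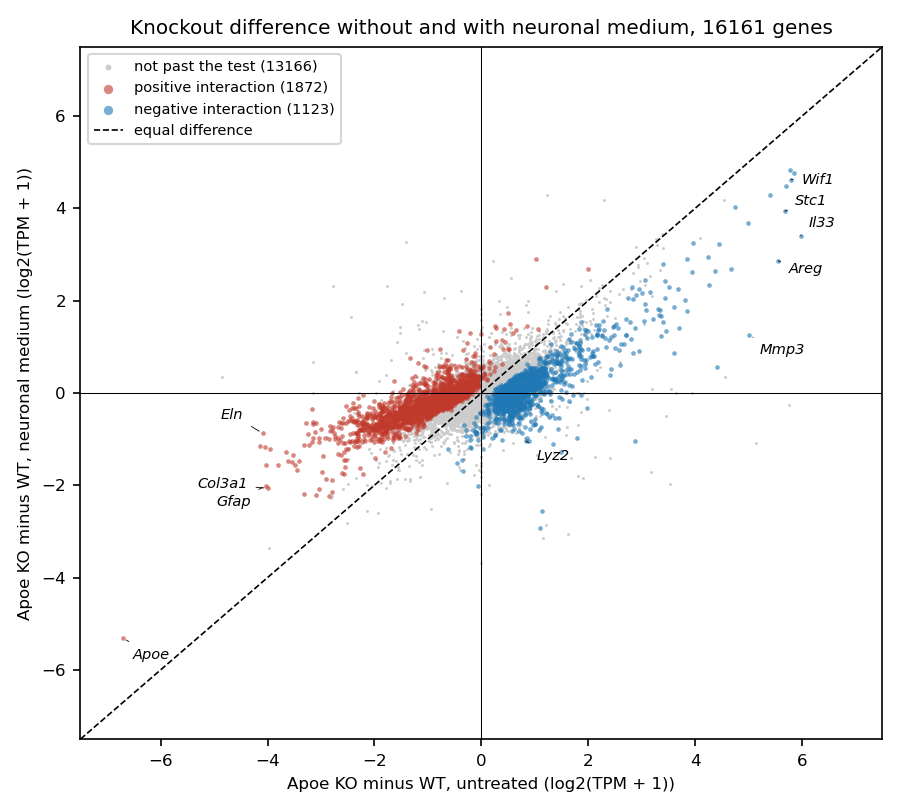
Each point is a gene. The horizontal axis is the knockout minus wild-type difference in untreated astrocytes and the vertical axis the same difference under neuronal medium, both in log2(TPM + 1), and the dashed line marks equal differences. Positive interactions (red, 1872) lie above the line and negative ones (blue, 1123) below it.

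The interaction is the medium-treated difference less the untreated one, so it shares libraries with both, and their values are set side by side as a description. The 1872 positive genes had a median interaction of 0.72, with a median knockout difference of -0.89 untreated and -0.18 under medium, and a median medium effect of 0.74 in knockout and 0.01 in wild type. The 1123 negative genes had a median interaction of -0.71, with a median knockout difference of 0.73 untreated and 0.08 under medium, and a median medium effect of -0.64 in knockout and 0.05 in wild type. On the linear TPM scale 4 of the positive genes and 0 of the negative genes had an interaction of the opposite sign.

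How far the levels moved was read from genes at least 4-fold apart between the untreated genotypes. For each, the change with medium in knockout was divided by the untreated gap between wild type and knockout, in TPM, so 0% is the untreated knockout level and 100% the untreated wild-type level. The untreated knockout libraries enter both the gap and the change. The 196 genes lower in untreated knockout closed a median of 47.5% of the gap (quartiles 35.5% and 58.3%), and the 145 genes higher in untreated knockout closed 61.7% (quartiles 44.6% and 74.6%). The levels of 2 of the lower genes and 9 of the higher genes moved away from wild type, and 3 of the lower genes passed the wild-type level.

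**Figure D2:**
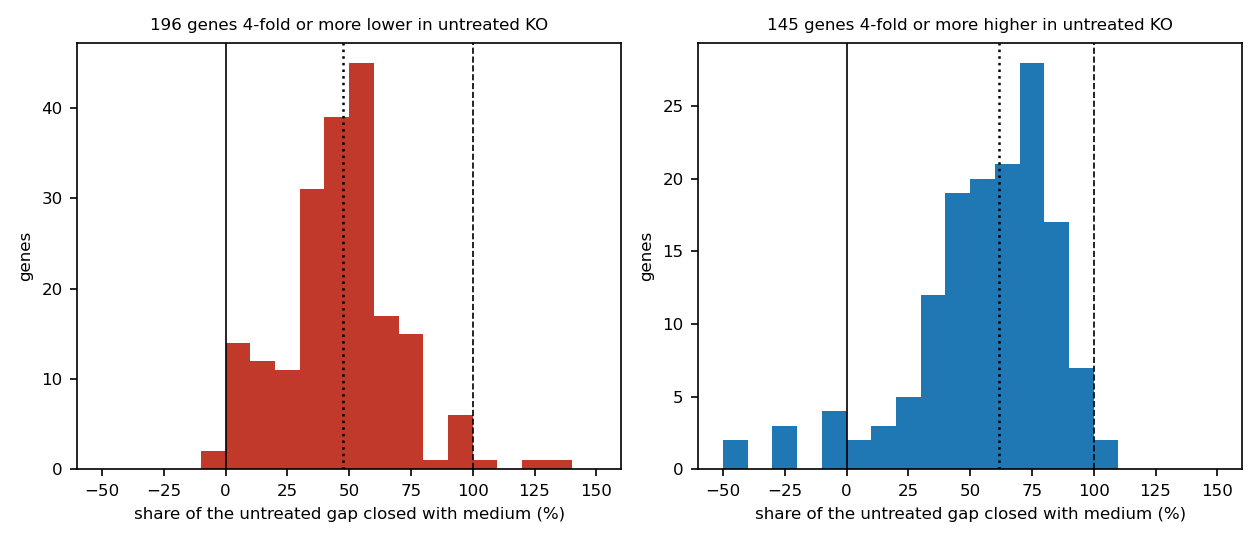
Share of the untreated gap between genotypes that closed with neuronal medium (horizontal axis, %) against the number of genes (vertical axis), for 196 genes at least 4-fold lower (left) and 145 at least 4-fold higher (right) in untreated knockout. Solid lines mark the untreated knockout level, dashed lines the wild-type level and dotted lines the medians of 47.5% and 61.7%, and 2 genes under -50% are drawn in the leftmost bar on the right. The rightmost bar there holds 2 genes at exactly 100%.

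Eln, Pla2g7, Mfap4 and Cdkn1c had the largest positive interactions among genes above the median level. Eln, which encodes elastin (chromosome 5, 134702593 to 134747323), stood at 89.8, 98.5 and 87.1 TPM in untreated wild type and 69.5, 70.3 and 68.2 TPM in wild type with medium. In the knockout it was at 4.77, 3.86 and 4.76 TPM untreated and 38, 39.5 and 34.7 TPM with medium. The knockout libraries rose 8.38-fold without reaching any wild-type library, while the wild-type libraries with medium lay below the untreated ones by a difference that did not pass (interaction 3.21 ± 0.13, limma adjusted p = 1.05e-12). Mfap4, a microfibril-associated glycoprotein, also stayed under every wild-type library, with 6.53, 6.73 and 5.86 TPM in untreated knockout, 46.5, 49.3 and 46.1 TPM in knockout with medium and 100.1 to 126.0 TPM over the wild-type libraries (interaction 2.87 ± 0.15, limma adjusted p = 2.32e-11). Pla2g7, the secreted phospholipase that degrades platelet-activating factor and oxidised phospholipids, rose 10-fold, from 5.7, 5.81 and 4.98 TPM to 54.8, 49.1 and 61.1 TPM (interaction 2.99 ± 0.20, limma adjusted p = 5.64e-10). Its wild-type libraries lay between 107 and 140.3 TPM in either condition. Cdkn1c, an inhibitor of cyclin-dependent kinases, rose from 4.7, 4.67 and 4.87 TPM to 31.7, 31.6 and 29.3 TPM in knockout, against 45.7, 53.1 and 53.8 TPM in untreated wild type and 40.1, 38.6 and 39.6 TPM in wild type with medium (interaction 2.83 ± 0.18, limma adjusted p = 2.93e-10).

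The 3 knockout libraries with medium lay above the 3 untreated ones in 1837 of the 1872 positive genes (98.1%). Among these were the remaining 8 of the 12 largest positive values, which belonged to genes of varied function. They were Rln1, a relaxin peptide hormone (interaction 2.73), Spon1, the matrix protein F-spondin (2.64), St8sia2, a polysialyltransferase (2.44), Fam107a, an actin-associated protein of astrocytes (2.35), Aldoc, the brain form of aldolase (2.25), Kcnj10, the inward rectifier potassium channel Kir4.1 (2.24), Bmp6, a bone morphogenetic protein (2.23), and Folr1, a folate receptor (2.21). Folr1 reached the wild-type range, with 29.9, 19.9 and 31.1 TPM in knockout with medium against 21.5, 30.5 and 29.3 TPM in untreated wild type and 4.88, 4.69 and 4.32 TPM in untreated knockout. Rln1 did not, with 20.01, 24.5 and 19.8 TPM against 51.9, 56 and 54.1 TPM. Bmp6 lay between, with 11.1, 10.9 and 11.5 TPM in untreated knockout, 56.5, 59.5 and 60.01 TPM with medium and 93.2 to 109.7 TPM over the wild-type libraries.

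Cytokine, matrix and protease genes stood among the 12 largest negative interactions of genes above the median level. Il33, an alarmin cytokine (chromosome 19, 29925114 to 29960718), stood at 5.33, 4.7 and 5.67 TPM in untreated wild type and 5.65, 4.75 and 4.24 TPM in wild type with medium. In the knockout it was at 389, 392.2 and 393 TPM untreated and 60.1, 61.3 and 62.5 TPM with medium. It fell 6.38-fold with medium in knockout and still lay above every wild-type library (interaction -2.57 ± 0.19, limma adjusted p = 2.38e-09). Spp1, the secreted phosphoprotein osteopontin, fell from 1613, 1591 and 1585 TPM to 329.5, 319 and 356 TPM, against 169.7 to 214 TPM over the wild-type libraries (interaction -2.04 ± 0.31, limma adjusted p = 5.03e-05). Timp1, an inhibitor of metalloproteinases, fell from 534, 564 and 551 TPM to 121, 128 and 112 TPM in knockout, close to the 105, 103 and 95.7 TPM of untreated wild type (interaction -1.91 ± 0.12, limma adjusted p = 2.03e-10). Plaur, the receptor that binds urokinase at the cell surface, fell from 88.2, 82.6 and 88.5 TPM to 21.6, 20.7 and 17.2 TPM, with 5.74 to 8.35 TPM over the wild-type libraries (interaction -2.11 ± 0.14, limma adjusted p = 4.8e-10).

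Of the other genes among the 12 largest negative values, Trf, the iron carrier transferrin, fell 5.06-fold with medium in knockout, from 101, 107 and 106 TPM to 19.4, 22.5 and 20.1 TPM (interaction -2.0). Stc1, the secreted glycoprotein stanniocalcin, stood at 2.9, 2.69 and 2.35 TPM in untreated wild type and fell from 191, 184 and 184 TPM to 53.8, 56 and 48.5 TPM in knockout (interaction -1.74). All 6 knockout libraries stayed above all 6 wild-type libraries for Stc1. Rarres1, a retinoic acid-responsive gene, had an interaction of -2.06 and Rgs16, a regulator of G-protein signalling, one of -1.98. The growth factor gene Fgf7 had one of -1.93 and the IGF-binding-protein-like gene Kazald1 one of -1.85. In all of them the knockout libraries were lower with medium than without, as in 1094 of the 1123 negative genes (97.4%). Lyz2, a lysozyme of macrophages and microglia, fell below wild type, from 294, 314 and 308 TPM to 76.5, 78.3 and 74.1 TPM in knockout against 173, 170.4 and 169 TPM in untreated wild type (interaction -1.87 ± 0.24, limma adjusted p = 5.6e-06). Hao1, a peroxisomal hydroxyacid oxidase, had the most negative value of the 12 but the least even libraries, with 52.8, 78.2 and 102 TPM in untreated knockout and 23.9, 42.3 and 0 TPM with medium (interaction -3.70 ± 1.13, limma adjusted p = 0.0248). Its wild-type libraries, at 21.7 to 69.0 TPM, overlapped both knockout groups, and 1 knockout library with medium is listed at 0. The interaction of Hao1 did not pass when limma was fitted to the 4 groups alone (adjusted p = 0.103), nor without some single libraries.

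**Figure D3:**
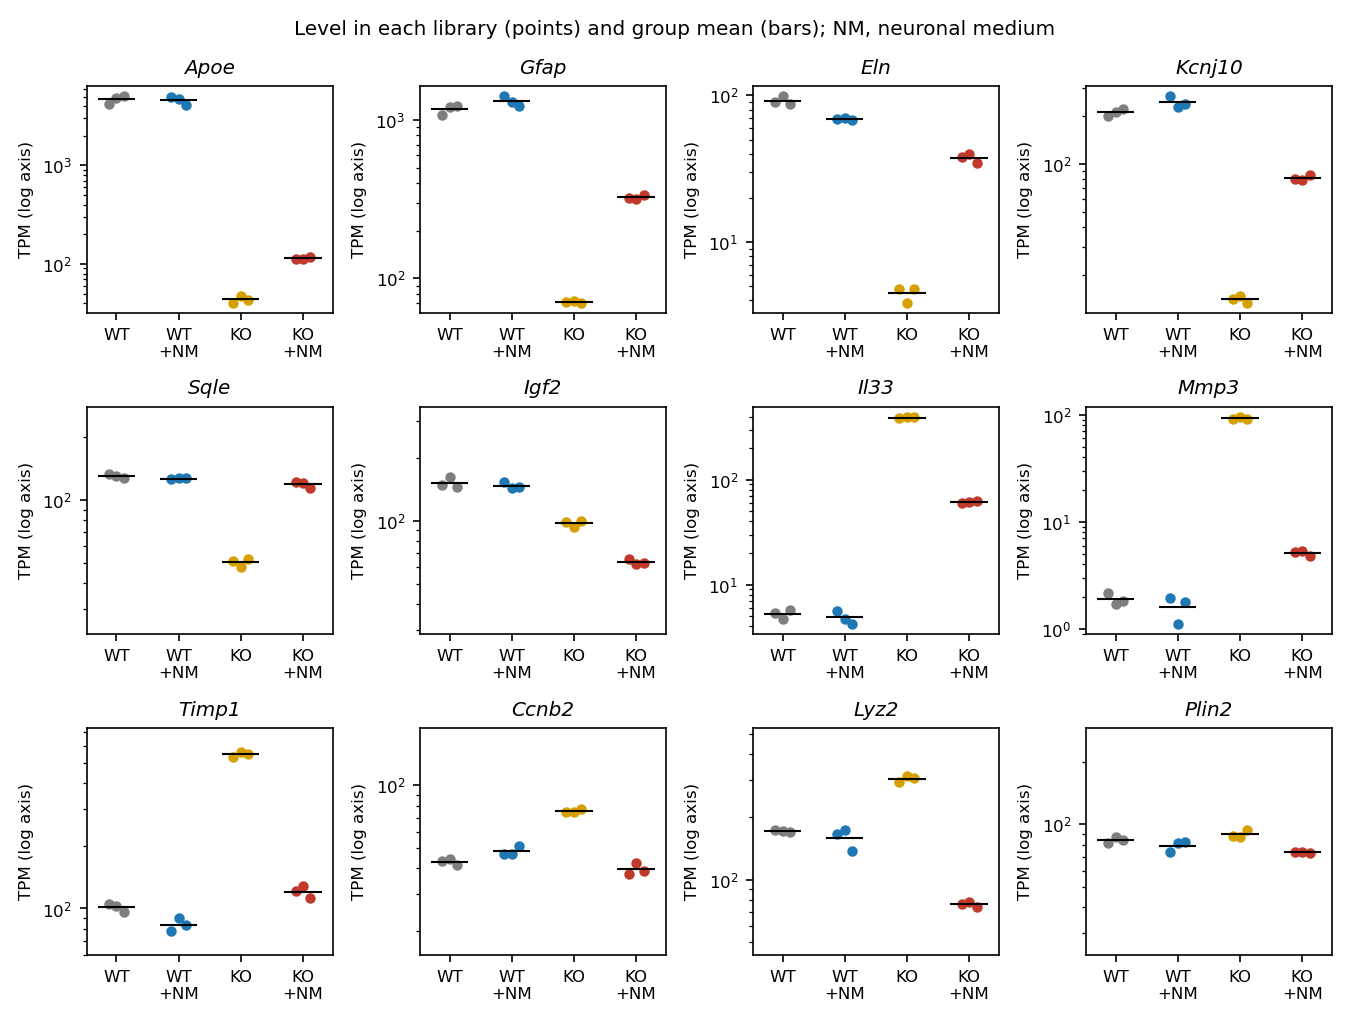
Level in TPM (vertical log axis, a scale of its own for each gene) of 12 genes in the 12 libraries, by group (horizontal axis). Points are libraries and bars group means, with NM for neuronal medium. Eln, Kcnj10 and Gfap rose with medium in knockout and stayed under wild type, and Sqle came near it. Il33, Mmp3, Timp1 and Ccnb2 fell, and Lyz2 and Igf2 ended below wild type. Plin2 fell by less, with all 12 libraries between 72.9 and 93.9 TPM.

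Gene lists are described by how many of their tested members passed the interaction test in each direction, beside the 11.6% positive and 6.95% negative of all genes, and by their median beside the median of -0.01 over all genes. Genes that mark astrocytes and those for their support of neurons had mostly positive interactions. Of 19 astrocyte markers, 16 were positive and 0 negative by limma (18 at an unadjusted p under 0.05 in either direction), with a median of 1.09, and of 14 genes for potassium, water and glutamate handling 12 were positive and 0 negative by limma (12 at an unadjusted p under 0.05), with a median of 1.06. All 19 astrocyte markers were lower in untreated knockout than in wild type, and 13 of them were lower under medium. Their summed level was 4423 to 4757 TPM in untreated wild type, 4847 to 5310.0 TPM in wild type with medium, 1254 to 1296 TPM in untreated knockout and 2880 to 3108 TPM in knockout with medium. The untreated knockout cultures thus carried the lowest level of astrocyte markers, and in bulk RNA fewer astrocytes and less of these RNAs per astrocyte cannot be told apart. Gjb6, the connexin 30 gene, was under 0.5 TPM in every library.

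Gfap, the intermediate filament protein of astrocytes, stood at 1080.2, 1206 and 1223 TPM in untreated wild type and 1410.2, 1299 and 1225 TPM in wild type with medium. In knockout it was at 70.6, 71.5 and 70.3 TPM untreated and 321, 318 and 337 TPM with medium. The 4.59-fold rise left all 3 knockout libraries with medium below all wild-type libraries, with 23.1% of the gap closed (interaction 2.02 ± 0.11, limma adjusted p = 4.9e-11). Kcnj10 rose from 14.1, 14.8 and 13.4 TPM to 80.3, 79.2 and 85.4 TPM, against 199.0 to 264.6 TPM in wild type. Atp1b2, a beta subunit of the sodium pump found in astrocytes, rose 3.68-fold with medium in knockout and closed 66.8% of its gap. Aldoc, whose protein is a glycolytic enzyme, closed 54.9%, Mlc1, a membrane protein of astrocyte junctions, 63.4%, and Glul, the glutamine synthetase that converts glutamate, 56.4%. Of the genes in this paragraph with a share given, Gfap closed the least of its gap and Atp1b2 the most.

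**Figure D4:**
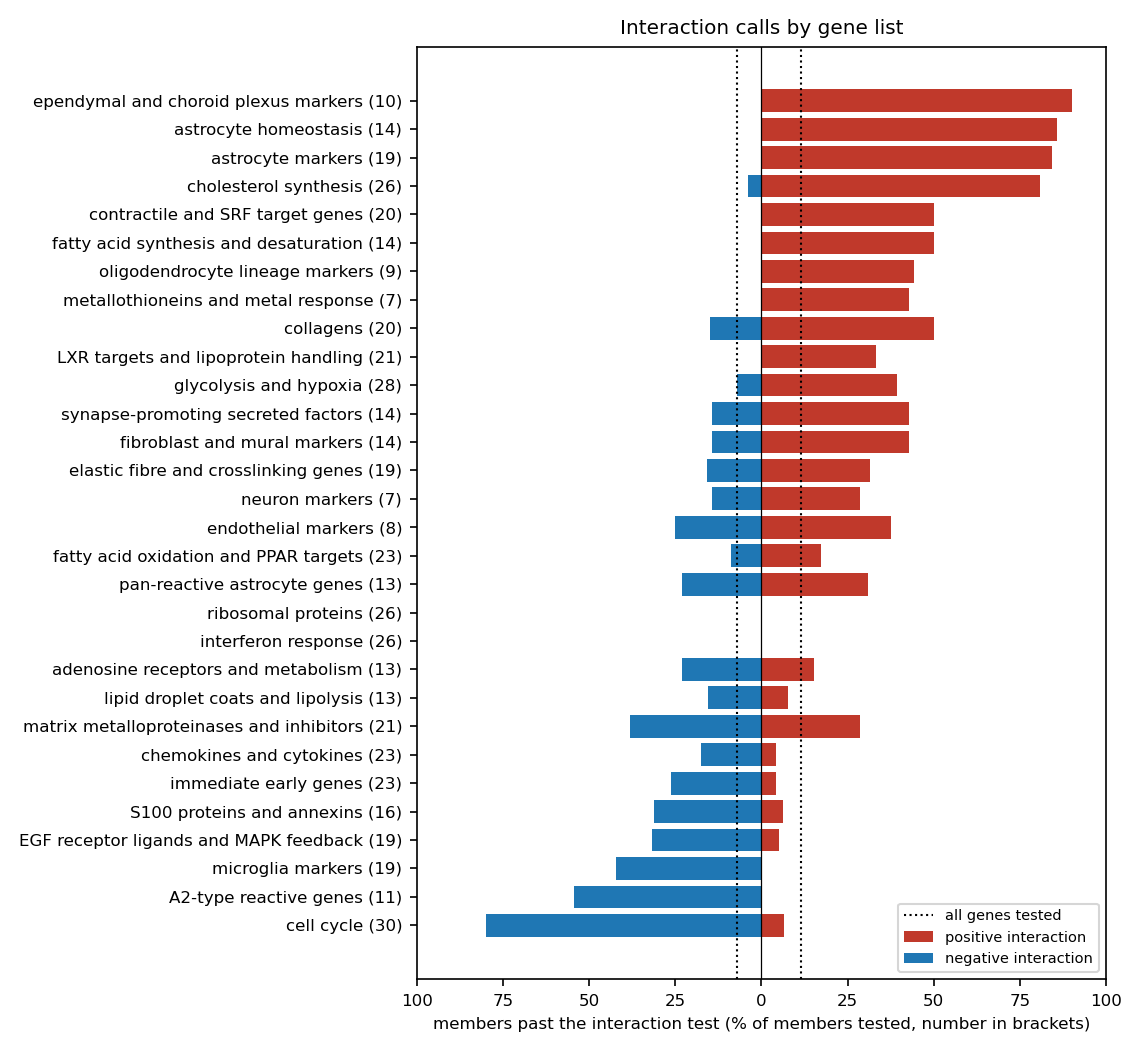
Share of the tested members of 30 gene lists past the interaction test (horizontal axis, %), positive to the right and negative to the left, with the number of members tested in brackets. Dotted lines mark the shares of all genes tested, 11.6% and 6.95%. Ependymal, astrocyte and cholesterol synthesis lists stand at the positive end, and cell cycle genes at the negative end.

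Genes that make cholesterol were lower in untreated knockout and rose with medium. Of 26 such genes 21 had a positive and 1, Ebp, a sterol isomerase, a negative interaction, with a median of 0.74. Ebp did not pass with median-ratio scaling, nor without the third untreated or the third medium-treated wild-type library. In untreated knockout 23 were lower and 1 higher than in wild type, and under medium 5 were lower and 1 higher. Sqle, the squalene epoxidase, stood at 133, 131 and 128 TPM in untreated wild type and 126, 127 and 128 TPM in wild type with medium. The knockout libraries were at 51.3, 47.8 and 52 TPM untreated and 123, 121 and 114 TPM with medium, just under every wild-type library (interaction 1.27 ± 0.09, limma adjusted p = 8.51e-10). Msmo1 and Nsdhl, enzymes that strip methyl groups from sterols, rose 1.91-fold and 1.97-fold and closed 59.4% and 63.7% of their gaps (interactions 0.97 and 0.94). Hmgcs1, which makes the precursor of mevalonate, rose 2.9-fold, from 57, 54.9 and 56 TPM to 160.2, 157 and 170.3 TPM, against 221 to 245 TPM in wild type (interaction 1.48 ± 0.28, limma adjusted p = 0.000615).

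The promoters of these genes can be set beside their shared movement. Sterol genes are switched on by the SREBP factors together with the CCAAT-binding factor NF-Y. RefSeq promoters (GRCm38.p6, the 250 bases before the start site) were matched for 18 of the 26 genes, and for 11563 of the tested genes. The letters CCAAT, searched on both strands, stand in 16 of the 18 (88.9%), against 40.7% of all matched promoters. The letters TCACNCCAC, a form of the sterol regulatory element, stand in 1 of the 18 (5.56%), against 1.25%. That promoter is shown because it holds both, with the CCAAT matches (ATTGG when read on the opposite strand) and the sterol element in capitals. It covers chr13:119690101-119690350 on the plus strand.
Hmgcs1: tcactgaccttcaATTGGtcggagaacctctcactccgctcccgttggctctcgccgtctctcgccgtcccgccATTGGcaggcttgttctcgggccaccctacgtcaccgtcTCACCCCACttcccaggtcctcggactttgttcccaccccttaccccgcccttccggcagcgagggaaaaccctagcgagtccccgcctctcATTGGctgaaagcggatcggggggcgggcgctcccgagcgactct
A match is a description of the letters, not evidence that a factor binds there.

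Part of the fatty acid synthesis and desaturation list was positive as well. Of 14 genes 7 were positive and 0 negative by limma (9 at an unadjusted p under 0.05), with a median of 0.32. Scd2, the main brain stearoyl-CoA desaturase, stood at 816, 878 and 839 TPM in untreated wild type, 237, 248 and 248 TPM in untreated knockout and 684, 675 and 679 TPM in knockout with medium (interaction 1.34 ± 0.10, limma adjusted p = 2.6e-09). The desaturases Fads1 and Fads2, which make polyunsaturated fatty acids, rose 1.88-fold and 2.35-fold and stayed below every wild-type library (interactions 0.94 and 1.26). Fasn, the fatty acid synthase, moved from 66.1, 66.8 and 60.4 TPM to 95.4, 102 and 92.5 TPM in knockout and overlapped the wild-type libraries, which lay between 91.4 and 99.9 TPM (interaction 0.63 ± 0.10, limma adjusted p = 0.000125). Of 21 genes for lipoproteins and targets of the oxysterol receptor LXR, 7 were positive and 0 negative by limma (8 at an unadjusted p under 0.05), with a median of 0.17. Clu, the lipid-carrying chaperone clusterin, rose from 441, 430.2 and 426 TPM to 879.6, 853 and 844 TPM, against 924 to 1057 TPM in wild type (interaction 0.96 ± 0.08, limma adjusted p = 1.11e-08). Apod, another lipid carrier, rose 4.48-fold (interaction 1.89 ± 0.16, limma adjusted p = 1.87e-08). Pltp, which transfers phospholipids between lipoproteins, rose from 127, 129 and 126 TPM to 320.1, 299.5 and 301 TPM and passed every wild-type library, at 202 to 269 TPM. Srebf1, the sterol-regulatory factor of fatty acid synthesis, reached 88.6, 82.8 and 85.3 TPM from 49.3, 54 and 51.8 TPM, above the 64.8 to 79.4 TPM of wild type.

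Of 13 genes for lipid droplet coats and lipolysis 1 was positive and 2 were negative, with a median of 0.06, and leaving out single libraries gave 1 or 2 in each direction. Plin2, the usual coat protein of droplets in these cells, stood at 81.2, 87.1 and 84.6 TPM in untreated wild type and 73.9, 81 and 82.4 TPM in wild type with medium. In knockout it was at 87.6, 87.3 and 93.9 TPM untreated and 74.1, 74 and 72.9 TPM with medium (interaction -0.19 ± 0.08, limma adjusted p = 0.121). The knockout libraries with medium lay below the untreated libraries of both genotypes and overlapped wild type with medium, and the interaction did not pass. The fall of Plin2 with medium passed in knockout (-0.28, limma adjusted p = 0.000569) and not in wild type (-0.09, limma adjusted p = 0.893). Pnpla2, the adipose triglyceride lipase, was the positive member (interaction 0.35 ± 0.09, limma adjusted p = 0.0116), and its interaction no longer passed with median-ratio scaling. Plin4, another coat protein, was negative at levels of 0.64 to 2.21 TPM (interaction -0.51 ± 0.13, limma adjusted p = 0.00648), and no longer passed with a pseudocount of 0.1. Of 23 genes for fatty acid oxidation and PPAR targets 4 were positive and 2 negative, with a median of 0.17, and 2 to 4 were positive without single libraries. Ucp2, a mitochondrial uncoupling protein, fell from 221, 199 and 221 TPM to 68.3, 73.7 and 63.8 TPM in knockout, against 19.1 to 27.3 TPM in wild type (interaction -1.61 ± 0.16, limma adjusted p = 2.63e-07), and Acot1, an acyl-CoA thioesterase, rose 2.66-fold (interaction 1.27 ± 0.14, limma adjusted p = 6.73e-07).

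Cell cycle genes had the largest share of negative interactions among the lists drawn in the plot of list calls. Of 30 genes 24 were negative and 2 positive, with a median of -0.64. In untreated knockout 21 were higher and 2 lower than in wild type, and under medium 1 was higher and 12 were lower. Ccnb2, a mitotic cyclin, stood at 43.2, 44.4 and 41.6 TPM in untreated wild type and 47.1, 47 and 51 TPM in wild type with medium. The knockout had 74.7, 74.6 and 77 TPM untreated and 37.5, 42.4 and 39 TPM with medium, so the highest group came down to overlap untreated wild type (interaction -1.08 ± 0.07, limma adjusted p = 8.51e-10). Bub1b, a kinase of the spindle checkpoint, fell from 38.1, 39.4 and 39.8 TPM to 20.9, 20.6 and 21.1 TPM, below all wild-type libraries (interaction -1.04 ± 0.11, limma adjusted p = 3.75e-07). Birc5, the mitotic protein survivin, fell from 90.2, 88.3 and 82.5 TPM to 51.1, 45.4 and 48.3 TPM, with 53.1 to 62.3 TPM in wild type (interaction -0.95 ± 0.10, limma adjusted p = 5.2e-07). The 2 positive members were Cdkn1c, described above, and Cdkn1a, both of which encode inhibitors of cyclin-dependent kinases. Cdkn1a did not pass with median-ratio scaling.

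NF-Y also serves many mitotic promoters, together with an element called the cell cycle homology region. Of 23 cell cycle promoters matched, 18 hold CCAAT (78.3%, against 40.7% of all) and 7 hold TTTGAA, a core of that region (30.4%, against 13%). The Ccnb2 promoter, chr9:70421555-70421804 on the minus strand, is shown because it holds 3 CCAAT matches close to its start site and a TTTGAA match farther upstream, all in capitals.
Ccnb2: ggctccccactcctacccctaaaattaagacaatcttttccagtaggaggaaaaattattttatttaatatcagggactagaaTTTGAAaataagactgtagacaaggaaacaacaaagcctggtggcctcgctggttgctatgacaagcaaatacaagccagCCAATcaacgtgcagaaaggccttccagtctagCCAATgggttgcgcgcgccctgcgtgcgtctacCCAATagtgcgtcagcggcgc
Over the 1409 matched promoters of positive genes and the 832 of negative genes, CCAAT stood in 42.5% of each, beside 40.7% of all promoters.

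Proteases of the matrix and their inhibitors split. Of 21 genes 6 were positive and 8 negative, with a median of -0.23 that became -0.43 without the second medium-treated knockout library. Mmp3, stromelysin (chromosome 9, 7445822 to 7455975), stood at 2.16, 1.72 and 1.83 TPM in untreated wild type and 1.93, 1.12 and 1.78 TPM in wild type with medium. In knockout it was at 92.1, 94.5 and 91 TPM untreated and 5.27, 5.37 and 4.79 TPM with medium. It fell 18-fold with medium in knockout, to levels still above every wild-type library (interaction -3.76 ± 0.25, limma adjusted p = 7.59e-10). Mmp14, a membrane-bound metalloproteinase, fell from 275, 273 and 271 TPM to 192, 186 and 179.5 TPM, against 137 to 158 TPM in wild type (interaction -0.65 ± 0.06, limma adjusted p = 4.82e-08). Mmp15, its close relative, moved the other way, from 9.07, 8.24 and 10.4 TPM to 35.3, 35 and 36.2 TPM, into the wild-type range of 34.6 to 45.1 TPM (interaction 1.68 ± 0.16, limma adjusted p = 1.2e-07). AP-1, the Fos and Jun dimer, is a known activator of stromelysin and of the urokinase receptor. Its site TGANTCA stands in 4 of 13 matched promoters of this list (30.8%), against 5.73% of all, in 6.97% of those of negative genes and in 6.6% of those of positive genes. The promoters of Mmp3 (chr9:7445572-7445821, plus strand) and Plaur (chr7:24462233-24462482, plus strand) are shown for the match that each holds near the start site, in capitals.
Mmp3: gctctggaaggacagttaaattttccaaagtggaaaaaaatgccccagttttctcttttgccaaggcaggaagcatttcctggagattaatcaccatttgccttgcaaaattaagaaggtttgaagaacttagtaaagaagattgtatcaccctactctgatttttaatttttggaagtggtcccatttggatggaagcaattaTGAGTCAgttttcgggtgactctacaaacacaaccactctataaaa
Plaur: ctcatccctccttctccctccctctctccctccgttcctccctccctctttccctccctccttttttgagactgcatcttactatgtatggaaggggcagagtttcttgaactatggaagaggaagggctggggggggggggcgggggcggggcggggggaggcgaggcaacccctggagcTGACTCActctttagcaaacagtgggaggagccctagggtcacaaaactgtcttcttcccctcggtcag

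Collagens and elastic fibre genes also split. Of 20 collagen genes 10 were positive and 3 negative, with a median of 0.62. Col3a1, a fibrillar collagen chain, stood at 119.7, 123 and 109.7 TPM in untreated wild type, 6.75, 6.41 and 6.22 TPM in untreated knockout and 23.9, 23.6 and 22.7 TPM in knockout with medium, which closed 15.2% of the gap (interaction 1.92 ± 0.24, limma adjusted p = 4.65e-06). Col1a2, a chain of collagen I, closed 17.9% (interaction 1.12 ± 0.08, limma adjusted p = 1.18e-09), Col18a1, a chain of basement membranes, 56.4% and Col5a2, a chain of collagen V, 95%. Col6a3, Col15a1 and Col16a1 were the negative members, with 2 or 3 negative calls without single libraries. Of 19 elastic fibre and crosslinking genes 6 were positive and 3 negative, with a median of 0.07 that lay between -0.005 and 0.14 without single libraries and so gives no direction. Fbln5, which tethers elastin to cells, rose in knockout from 151, 143 and 153 TPM to 414, 413 and 376 TPM and ended above wild type, at 301 to 368 TPM (interaction 1.61 ± 0.09, limma adjusted p = 2.74e-11). Loxl3, a lysyl oxidase that crosslinks elastin and collagen, fell from 216, 190.3 and 206 TPM to 69.6, 77.4 and 65.5 TPM (interaction -1.33 ± 0.10, limma adjusted p = 5.43e-09).

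Contractile genes combined small movements in both genotypes. Of 20 contractile genes and targets of serum response factor 10 were positive and 0 negative by limma (10 at an unadjusted p under 0.05), with a median of 0.31, a median medium effect of -0.21 in wild type and of 0.13 in knockout. With median-ratio scaling of the libraries 6 were positive. In wild type 1 member, Tpm1, a tropomyosin, fell with medium past the test. Cnn1, the smooth muscle calponin, stood at 564, 579 and 545 TPM in untreated wild type and 430.4, 484 and 460.4 TPM in wild type with medium. The knockout libraries stood at 303, 285 and 306 TPM untreated and 436, 446 and 409 TPM with medium (interaction 0.83 ± 0.10, limma adjusted p = 2.19e-06). The wild-type and knockout libraries thus approached each other from both sides, although the wild-type part did not pass by itself (limma adjusted p = 0.187). Myl9, a myosin light chain, and Cnn2, another calponin, had interactions of 0.62 and 0.52.

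Reactive astrocyte genes did not move as a block. Of 13 genes reported for reactive astrocytes in general 4 were positive and 3 negative, with a median of 0.08 that rose to 0.33 without the first untreated wild-type library. Gfap, Serpina3n, a secreted protease inhibitor (1.38), and S1pr3, a sphingosine phosphate receptor (1.81), rose in knockout, as did Steap4, while Timp1, Hspb1 and Cd44 fell. The interaction of Steap4 did not pass without some single libraries. Of 11 genes of the A2 class, first described after ischaemia, 6 were negative and 0 positive by limma (7 at an unadjusted p under 0.05), with a median of -0.66. Tm4sf1, a tetraspanin-like membrane protein, fell from 752, 707 and 758 TPM to 281, 314 and 273 TPM in knockout, against 121 to 163 TPM in wild type (interaction -1.14 ± 0.11, limma adjusted p = 1.93e-07). Emp1, an epithelial membrane protein, fell from 748, 742 and 752 TPM to 378, 385 and 362 TPM and stayed above wild type, at 248 to 269 TPM (interaction -0.91 ± 0.14, limma adjusted p = 7.57e-05). Clcf1, a cytokine of the interleukin 6 family, fell from 133, 119 and 132 TPM to 59.1, 56 and 55.8 TPM, against 56.7, 57.6 and 57 TPM in untreated wild type (interaction -0.89 ± 0.07, limma adjusted p = 4.15e-09). Ptx3, a pentraxin of innate immunity, had an interaction of -0.97 ± 0.21.

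Many RNAs of growth factor pathway and immediate early genes stood higher in untreated knockout than in wild type, and some of them fell with medium. Of 19 ligands and feedback genes of the EGF receptor and MAP kinase pathway 6 were negative and 1 (0 to 2 without single libraries) positive, with a median of -0.20, which lay between -0.31 and -0.11 without single libraries. Of the 19, 13 were higher in knockout than in wild type untreated and 13 under medium. Areg, the EGF receptor ligand amphiregulin, stood at 0.22, 0.29 and 0.32 TPM in untreated wild type and 0.54, 0.42 and 0.14 TPM in wild type with medium. Knockout levels were 61.9, 60.4 and 55.4 TPM untreated and 8.52, 10.3 and 7.97 TPM with medium, a 6.63-fold fall to levels still far above wild type (interaction -2.69 ± 0.18, limma adjusted p = 4.98e-10). The feedback genes Phlda1, Errfi1, which inhibits the receptor, and Dusp5, a phosphatase of ERK, fell in knockout 2.32-fold, 2.33-fold and 1.63-fold and stayed above every wild-type library. Of 23 immediate early genes 6 were negative and 1 positive, with a median of -0.25 that became -0.05, with 2 positive, without the third medium-treated wild-type library. Of the 23, 18 were higher and 1 lower in knockout than in wild type untreated, and 15 were higher and 0 lower under medium. Nr4a1, a nuclear receptor induced by many stimuli, fell from 50.2, 46 and 49.8 TPM to 8.26, 10.5 and 8.95 TPM, against 2.16 to 4.19 TPM in wild type (interaction -2.28 ± 0.21, limma adjusted p = 8.6e-08). Junb fell from 191, 182 and 194 TPM to 108, 107 and 119 TPM (interaction -0.80 ± 0.20, limma adjusted p = 0.00577), and Egr3, a zinc finger factor, had an interaction of -1.10. Jun was the positive member, with 96.2, 96.6 and 97.4 TPM in knockout with medium against 69.5 to 82.0 TPM in the other 9 libraries (interaction 0.41 ± 0.09, limma adjusted p = 0.00212).

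The metallothionein genes rose together. Mt1, Mt2 and Mt3, small proteins that bind zinc and copper, were the positive members of a list of 7 metal response genes, with 0 negative by limma (5 at an unadjusted p under 0.05) and a median of 0.49. Mt3, the brain form, stood at 2975, 3319 and 3202 TPM in untreated wild type, 796, 785 and 878 TPM in untreated knockout and 2168, 2205 and 2140.3 TPM in knockout with medium (interaction 1.28 ± 0.11, limma adjusted p = 2.64e-08). Mt1 and Mt2 closed 76.9% and 73.6% of their gaps (interactions 1.02 and 1.14). Of 28 glycolysis and hypoxia genes 11 were positive and 2, Gapdh and Pkm, negative, with a median of 0.22. With median-ratio scaling neither Gapdh nor Pkm passed. Egln3, an oxygen-sensing prolyl hydroxylase, rose 4.27-fold in knockout, from 6.29, 5.19 and 6.07 TPM to 24.1, 24.8 and 26.1 TPM (interaction 1.70 ± 0.12, limma adjusted p = 1.51e-09). Ndrg1, a hypoxia-inducible gene, and Slc2a1, the glucose transporter GLUT1, had interactions of 0.95 and 0.73.

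Secreted factors that promote or restrain synapses were among the abundant genes with positive interactions. Of 14 such genes 6 were positive and 2 negative, with a median of 0.57. Gpc4, a glypican that recruits glutamate receptors, stood at 771, 756 and 742 TPM in untreated wild type, 201, 191 and 207 TPM in untreated knockout and 650.5, 679.6 and 660.0 TPM in knockout with medium (interaction 1.68 ± 0.08, limma adjusted p = 2.02e-11). Sparcl1, or hevin, rose from 50.1, 47.7 and 45.8 TPM to 130.5, 134 and 151 TPM, level with the wild-type libraries at 113 to 149.6 TPM (interaction 1.37 ± 0.15, limma adjusted p = 4.88e-07). Sparc, which opposes hevin at synapses, rose as well, from 3775, 3747 and 3826 TPM to 5988, 5983 and 5725 TPM (interaction 0.75 ± 0.06, limma adjusted p = 1.18e-08). Thbs2, a thrombospondin, fell from 258, 254 and 265 TPM to 142, 142 and 136 TPM (interaction -0.79 ± 0.11, limma adjusted p = 2.39e-05). Of 16 S100 and annexin genes 5 were negative and 1, Anxa11, positive, with a median of -0.12, and 3 were negative with median-ratio scaling. S100a6, a calcium-binding protein, fell from 3758, 3740.3 and 3770.3 TPM to 1439, 1567 and 1362 TPM, against 859 to 978 TPM in wild type (interaction -1.25 ± 0.10, limma adjusted p = 6.96e-09), and S100a4 and S100a13 had interactions of -1.16 and -0.62.

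Adenosine genes moved in both directions. Of 13 genes 2 were positive and 3 negative, with a median of -0.07 that lay between -0.15 and 0.01 without single libraries. Adora2a, the A2a adenosine receptor that the series also studied in brain, was under 0.7 TPM in all 12 libraries, with 0.67, 0.6 and 0.33 TPM in untreated knockout and 0.47, 0.18 and 0.13 TPM with medium (interaction -0.27 ± 0.19, limma adjusted p = 0.398), and the groups overlapped. Adora1, the inhibitory A1 receptor, rose from 10.9, 10.9 and 11.4 TPM to 30.3, 27.3 and 27.9 TPM in knockout, against 40.6 to 51.1 TPM in wild type (interaction 1.26 ± 0.18, limma adjusted p = 1.79e-05). Slc29a1, a nucleoside transporter, fell from 289, 267 and 293 TPM to 98.6, 102 and 91.7 TPM, with 17.6 to 27 TPM in wild type (interaction -1.38 ± 0.16, limma adjusted p = 2.15e-06). Entpd2, an ectonucleotidase, and Ahcy, which breaks down adenosylhomocysteine, had interactions of 1.12 and -0.64.

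Of 23 chemokines and cytokines 4 were negative and 1 positive, with a median of -0.45. Besides Il33 the negative members were Ccl12, Cxcl12, which attracts cells through its receptor Cxcr4 (-0.83), and Tgfb1, which fell in knockout from 61.6, 63 and 67.1 TPM to 25.8, 23.9 and 21.9 TPM (interaction -1.21 ± 0.13, limma adjusted p = 6.11e-07). Tgfb2, of the same family, was the positive member and rose from 18.7, 18.4 and 15.9 TPM to 31.6, 34.5 and 34.1 TPM, overlapping the wild-type libraries at 32.8 to 38.1 TPM (interaction 0.82 ± 0.17, limma adjusted p = 0.00106). Of 26 interferon response genes 0 passed limma's interaction test (2 at an unadjusted p under 0.05), with a median of 0.01 (-0.07 to 0.13 without single libraries), and 13 were lower in knockout untreated and 7 under medium. With limma fitted to the 4 groups alone, 3 interferon genes were positive and 1 negative. Of 26 ribosomal protein genes 0 passed it (1 at an unadjusted p under 0.05), with a median of -0.12, and 23 were higher in knockout untreated and 19 under medium. With the 4 groups alone 5 ribosomal genes were negative.

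Markers of other cell types moved as well, and their part in the results above was not tested. Microglial markers stood farther from wild type under medium. Of 19 tested 8 were negative and 0 positive by limma (9 at an unadjusted p under 0.05), with a median of -0.38. In knockout 10 were lower than in wild type untreated and 17 under medium. Their summed level was 611 to 670.1 TPM in untreated wild type, 556.5 to 642.5 TPM in wild type with medium, 511.5 to 552.5 TPM in untreated knockout and 372 to 385.0 TPM in knockout with medium, so the last group was the lowest and overlapped no other. Tyrobp, an adaptor of microglial receptors, stood at 60.7, 69.1 and 68.7 TPM in untreated wild type and 54.5, 66.1 and 67.9 TPM in untreated knockout, and at 31.2, 32 and 30.2 TPM in knockout with medium (interaction -0.79 ± 0.16, limma adjusted p = 0.00104). Cd68, a lysosomal protein of phagocytes, fell to 17.1, 17.1 and 17 TPM from 34, 38.3 and 38.6 TPM (interaction -0.77 ± 0.14, limma adjusted p = 0.000326). The complement genes C1qa and C1qc had interactions of -0.74 and -0.72, and Csf1r and Trem2, receptors that sustain microglia and sense lipids, of -1.10 and -0.99. Siglech was under 0.5 TPM in every library.

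Ependymal and choroid plexus markers were positive in 9 of 10 tested and negative in 0 by limma (10 at an unadjusted p under 0.05), with a median of 1.01. They summed to 295 to 345 TPM in untreated wild type, 343 to 398 TPM in wild type with medium, 138 to 145 TPM in untreated knockout and 316 to 356 TPM in knockout with medium. Foxj1, the master factor of motile cilia, rose from 77.8, 78.6 and 80.5 TPM to 163, 165 and 164 TPM, within the wild-type range of 131 to 186 TPM (interaction 0.84 ± 0.13, limma adjusted p = 7.04e-05). Ttr, the transthyretin of choroid plexus, was at 0.75, 0.46 and 0.3 TPM in untreated knockout and 7.48, 6.56 and 7.48 TPM with medium (interaction 2.02 ± 0.37, limma adjusted p = 0.000356), and Rsph1, a protein of ciliary spokes, had an interaction of 0.73. Of 9 oligodendrocyte lineage markers 4 were positive and 0 negative by limma (4 at an unadjusted p under 0.05), with a median of 0.67 that became 0.27 without the second untreated knockout library. With medium in knockout, 4 of these 9 markers rose and 2 fell past the test. Untreated, 7 were lower and 1 was higher in knockout than in wild type. Olig1 and Olig2, transcription factors of that lineage, rose 3.53-fold and 3.07-fold in knockout, from 57.8, 58.5 and 58 TPM and from 15.1, 14.4 and 15.8 TPM. Cnp, a protein of myelinating cells, and Sox10, a lineage factor, had interactions of 0.98 and 0.68, while Mog, Gpr17, Ugt8a and Bcas1 were under 0.5 TPM throughout.

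Of 7 neuron markers 2 were positive and 1 negative (2 without the second medium-treated wild-type library), with a median of 0.13. That median lay between 0.02 and 0.24 without single libraries and was 0.67 with a filter of 5 TPM. The 7 tested markers summed to 420.4 to 454.7 TPM in untreated wild type and 398.3 to 429.1 TPM in wild type with medium. In knockout their sum was 274.5 to 280.6 TPM untreated and 394.7 to 417.7 TPM with medium. The neuronal genes Rbfox3, Snap25, Nefl, Slc17a7, Gad2, Dcx, Elavl3 and Elavl4 were under 0.5 TPM in every library. Stmn2, a regulator of microtubules, moved from 219, 219 and 214 TPM to 317, 335 and 309.7 TPM in knockout (interaction 0.67 ± 0.07, limma adjusted p = 2.51e-07), and Map2, another microtubule protein, from 34, 26.7 and 28.3 TPM to 60.05, 62.3 and 68.9 TPM (interaction 1.00 ± 0.25, limma adjusted p = 0.00568). Tubb3 was the negative member (interaction -0.57 ± 0.16, limma adjusted p = 0.013) and did not pass with median-ratio scaling. Of 14 fibroblast and mural markers 6 were positive and 2 (1 or 2 without single libraries) negative, with a median of 0.30. They summed to 6349 to 8462 TPM over the 12 libraries, above the astrocyte markers in each, and most of that sum came from the smooth muscle genes Acta2 and Tagln. Kcnj8, Abcc9 and Slc6a13 were under 0.5 TPM in every library. Rgs5, a pericyte gene, reached 1.21 TPM at most. Of 8 endothelial markers 3 were positive and 2 negative, with a median of 0.14. That median lay between 0.09 and 0.31 without single libraries, was 0.36 with a pseudocount of 0.1 and turned to -0.11 with a filter of 5 TPM, so it gives no direction. The endothelial markers Pecam1, Cldn5, Tie1 and Emcn were under 0.5 TPM throughout.

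**Figure D5:**
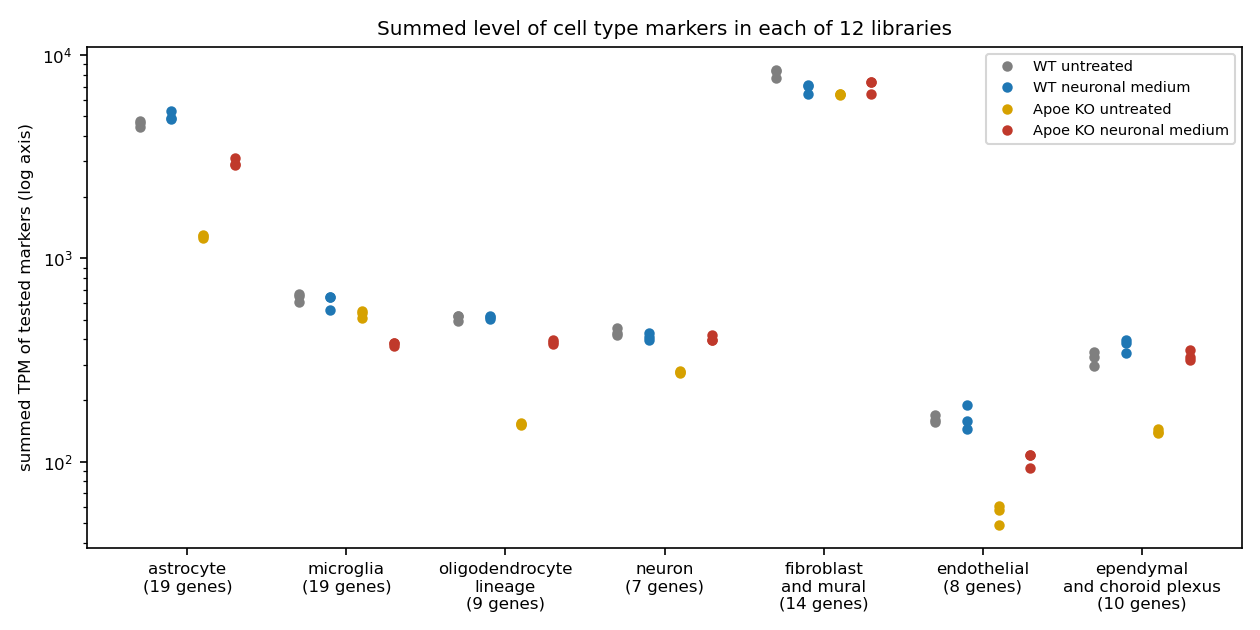
Summed TPM of the tested markers of 7 cell types (horizontal axis, with the number of genes) in each of the 12 libraries (points, vertical log axis), coloured by group. Astrocyte, oligodendrocyte lineage, neuron, endothelial and ependymal sums are lowest in untreated knockout, and microglial sums are lowest in knockout with medium, at 372 to 385.0 TPM.

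Some genes parted from the common course, and they were chosen for mention after their values were seen. Serpine2, the protease inhibitor nexin 1, passed from below to above wild type, with 151, 150.5 and 152 TPM in untreated knockout, 317, 319.6 and 327 TPM with medium and 263 to 293 TPM in wild type (interaction 1.08 ± 0.07, limma adjusted p = 6.85e-10). Vgf, a secreted neuropeptide precursor, and Fxyd5, a regulator of the sodium pump, passed from above to below by the test in each condition, with interactions of -1.34 and -1.63. In other genes the gap was wider with medium. Rflnb, a partner of filamin, went from 26.7, 27.5 and 24.5 TPM to 58.1, 59.6 and 53.7 TPM in knockout, against 19.2 to 23.6 TPM in wild type (interaction 1.2 ± 0.17, limma adjusted p = 2.47e-05). Fndc1, a fibronectin domain protein, rose from 65.9, 69 and 74 TPM to 175, 164 and 145 TPM, against 43.8 to 56.6 TPM in wild type (interaction 1.24 ± 0.27, limma adjusted p = 0.00199), and Zfp36, which destabilises messenger RNAs, rose 1.98-fold (interaction 0.95 ± 0.22, limma adjusted p = 0.00335). Igf2, an imprinted growth factor, was low in knockout and fell further with medium, from 99.2, 93.2 and 99.8 TPM to 65.3, 62.4 and 62.7 TPM, against 144 to 161 TPM in wild type (interaction -0.57 ± 0.10, limma adjusted p = 0.000338).

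Of the 6 genes that changed with medium in wild type, also named after their values were seen, 3 passed the interaction test. Deup1 and Mcidas, which act in making the basal bodies of cilia, and Sap30l, a chromatin protein, rose, and Aldh1a1, a retinaldehyde dehydrogenase, Tpm1 and the pseudogene Rpl28-ps1 fell. Aldh1a1 stood at 412, 390.3 and 394 TPM in untreated wild type and 291, 299 and 315 TPM with medium, while the knockout went from 270.5, 259.7 and 261 TPM to 309, 309.7 and 305 TPM, with untreated wild type above the other 3 groups (interaction 0.62 ± 0.10, limma adjusted p = 6.31e-05). Deup1 rose from 1.35, 2.22 and 2.39 TPM to 4.16, 3.34 and 4.42 TPM in wild type and from 0.02, 0.03 and 0.06 TPM to 1.91, 2.78 and 1.93 TPM in knockout (interaction 0.87 ± 0.18, limma adjusted p = 0.00119), the same direction in both genotypes. Sap30l had an interaction of -0.28, and the other 3 did not pass the interaction test. Among the genes named here Plaur, Tgfb1, Zfp36, Tyrobp and Fxyd5 lie within 20 Mb of Apoe on chromosome 7.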

How the data were processed

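RNA-seq of cultured astrocytes was used as the authors' deposited table of gene levels in TPM. The submitters' processing notes name HISAT2, StringTie, RSEM and the mm10 build; versions, annotation, strand setting and the depth behind the TPM are not given in the labels or files used. The table held 53700 genes, and 16161 at 1 TPM or more in at least 3 of the 27 astrocyte libraries were tested, of which 16096 matched GENCODE M21 for coordinates. From the deposited TPM, log2(TPM + 1) was computed and fitted with limma 3.58.1 (R 4.3.3; group means of 9 groups, mean-variance trend, Benjamini-Hochberg threshold 0.05), with the interaction and its 4 parts as contrasts. Libraries were grouped by their labels. Checked on simulated data for the interaction (16161 genes), the fit recovered 85 of 100 genes changed 2-fold and 94 of 100 changed 4-fold, with 13 unchanged genes called. The changed genes were drawn only from genes above a minimum level, so recovery of low genes was not checked.

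Genes named were Apoe, Gfap, Plin2 and Adora2a, the 12 largest positive and 12 largest negative interactions past the threshold among genes above the median level (without predicted genes, pseudogenes, Y-linked genes and Xist), and up to 4 members with the smallest p of each list described, some of which are not reported here. The members, gene lists and tests were chosen with earlier results of these data known. Levels were not corrected for cell make-up. Promoters were matched by symbol from RefSeq. Alternatives were median-ratio scaling, a pseudocount of 0.1, no filter, a filter of 5 TPM, a 2-fold threshold, the 4 groups alone, a replicate block, robust moderation and leaving out each library.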

Additional observations from a re-analysis of the deposited data

Results flagged for a closer look

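The effect of neuronal medium differed between the genotypes by limma's interaction test in 1872 genes with a positive and 1123 with a negative value, and in 123 of the genes named above. Their interaction values on the log2(TPM + 1) scale follow, with no explanation weighed. Among the astrocyte and transport genes the values were 2.02 for Gfap, 2.25 for Aldoc, 1.60 for Mlc1, 1.03 for Glul and 2.24 for Kcnj10. Further values were 1.85 for Atp1b2, 1.02 for Mt1, 1.14 for Mt2, 1.28 for Mt3, 1.26 for Adora1 and 1.12 for Entpd2. Among the sterol, fatty acid and lipoprotein genes the values were 1.40 for Apoe, 1.27 for Sqle, 0.94 for Nsdhl, 0.97 for Msmo1 and 1.48 for Hmgcs1. They were 0.94 for Fads1, 1.26 for Fads2, 1.34 for Scd2, 0.63 for Fasn, 0.96 for Clu and 1.89 for Apod. Next came 1.13 for Pltp, 0.69 for Srebf1, 0.35 for Pnpla2, 1.27 for Acot1 and 2.99 for Pla2g7. Among the matrix, contractile and synapse-related genes the values were 3.21 for Eln, 2.87 for Mfap4, 1.61 for Fbln5, 1.12 for Col1a2, 1.92 for Col3a1 and 0.76 for Col5a2. The list went on with 1.26 for Col18a1, 1.68 for Mmp15, 1.68 for Gpc4, 0.75 for Sparc, 1.37 for Sparcl1 and 2.64 for Spon1. Further values were 0.83 for Cnn1, 0.52 for Cnn2, 0.62 for Myl9, 1.08 for Serpine2 and 1.24 for Fndc1. Among the markers of other cell types the values were 1.76 for Olig1, 1.62 for Olig2, 0.98 for Cnp, 0.68 for Sox10, 0.84 for Foxj1 and 2.02 for Ttr. They were 0.73 for Rsph1, 0.67 for Stmn2, 1.00 for Map2, 0.92 for Rgs5 and 0.87 for Deup1. Among the remaining genes with a positive value the values were 2.83 for Cdkn1c, 2.73 for Rln1, 2.44 for St8sia2, 2.35 for Fam107a, 2.23 for Bmp6 and 2.21 for Folr1. Next came 1.81 for S1pr3, 1.38 for Serpina3n, 0.41 for Jun, 0.56 for Anxa11, 1.70 for Egln3 and 0.95 for Ndrg1. The list went on with 0.73 for Slc2a1, 0.82 for Tgfb2, 1.2 for Rflnb, 0.95 for Zfp36, 0.62 for Aldh1a1 and 0.89 for Xist. Among the cell cycle and early response genes the values were -1.08 for Ccnb2, -1.04 for Bub1b, -0.95 for Birc5, -2.28 for Nr4a1, -1.10 for Egr3 and -0.80 for Junb. Further values were -2.69 for Areg, -1.14 for Phlda1, -1.05 for Errfi1 and -0.65 for Dusp5. Among the microglial genes the values were -0.77 for Cd68, -0.79 for Tyrobp, -0.74 for C1qa, -0.72 for C1qc, -1.10 for Csf1r and -0.99 for Trem2. They were -1.87 for Lyz2. Among the protease, matrix and secreted genes the values were -3.76 for Mmp3, -0.65 for Mmp14, -1.91 for Timp1, -2.11 for Plaur, -1.33 for Loxl3 and -0.79 for Thbs2. Next came -2.04 for Spp1, -2.57 for Il33, -1.21 for Tgfb1, -0.83 for Cxcl12, -0.89 for Clcf1 and -0.97 for Ptx3. The list went on with -0.57 for Igf2, -1.93 for Fgf7, -1.85 for Kazald1, -1.74 for Stc1, -2.0 for Trf and -1.34 for Vgf. Among the remaining genes with a negative value the values were -1.14 for Tm4sf1, -0.91 for Emp1, -1.16 for S100a4, -1.25 for S100a6, -0.62 for S100a13 and -1.38 for Slc29a1. Further values were -0.64 for Ahcy, -0.51 for Plin4, -1.61 for Ucp2, -0.57 for Tubb3, -1.63 for Fxyd5 and -0.28 for Sap30l. They were -3.70 for Hao1, -2.06 for Rarres1 and -1.98 for Rgs16.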

How the results depend on the processing

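Calls were recomputed with other scaling, pseudocounts, filters, thresholds, fits and sets of libraries, and with the X and Y genes left out (an alternative chosen after seeing the data, 2905 calls of the genotype by neuronal medium interaction against 2995). Counts outside 1.5 times the reported ones were the following, and their cause was not tested beyond the construction of each alternative. Asking also for a 2-fold difference left 768 interaction calls (512 positive, 256 negative), 823 in knockout with medium, 1712 between untreated genotypes, 429 between genotypes under medium and 0 in wild type with medium. The wild-type count of 6 became 2 with median-ratio scaling, 3 with a pseudocount of 0.1 TPM, 30 with no filter and 2 with the 4 groups alone. Without single libraries the interaction count ranged from 2594 to 2771 (1634 to 1789 positive, 926 to 1016 negative) and the wild-type count from 0 to 11. The 4 groups alone gave 1900 negative interactions, and 2430 positive ones against the reported 1872. The positive share was 62.5% and ranged from 56.1% to 65.3%.

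Libraries with the same replicate number did not deviate together (correlations of -0.0699 to 0.0871 over 18 pairs, against -0.106 to 0.108 for different numbers, with 3 of 12 libraries closest to their own number). Whether they shared a culture or a preparation cannot be read from these correlations. The fit with a replicate block gave 1798 negative and 2313 positive interactions and 1 wild-type call. Of 123 genes past the interaction test that are named with values of their own, 117 passed under every alternative run other than the 2-fold one, which was not applied to single genes, and none changed sign. The exceptions were Plin4, Pnpla2, Tubb3, Sap30l, Xist and Hao1. Ebp, Gapdh, Pkm, Cdkn1a and Steap4, named without values, also lost the call, as given with their lists. The count of negative collagen genes, likewise named without values, fell from 3 to 2 under some alternatives. It rose to 5 with the 4 groups alone and with a replicate block. Depth is unknown, so the precision of low genes cannot be given.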
